A study of Mus musculus with 8 samples.

Results

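The probes described here report on long intergenic RNA. Each is named in the array design only by a genomic interval of the mouse build mm9 and by the strand it reads, forward (F) or reverse (R), with no gene name. Interval probes were included if they had no spot in a rectangle of the array, spanning rows 97 to 336 and columns 83 to 164. There the negative-control spots were bright on some WT arrays, WT 1 and WT 3, but not on WT 2 and WT 4. These criteria chose 11096 of the 16181 interval probes and of the 55681 distinct probes on the array that are no control, and another 26872 probes lay outside the rectangle and read other transcripts. The 11096 probes read 3327 intervals. Both strands were read for 954 intervals, the forward strand alone for 1201 and the reverse strand alone for 1172. The intervals were 62 to 538251 bp long with a median of 7551 bp, and an interval strand was read by a median of 2 and at most 10 probes. Of the intervals, 57.2% overlapped another, so the probes are not independent of each other. No probe sequence and no mm9 annotation was used, and gene names for the intervals are therefore not given.

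Long intergenic non-coding RNAs are transcribed between protein-coding genes and have no known protein product. Many are present at low levels and in few tissues, and some act on chromatin or on the expression of other genes. Direction of transcription is not known for every such interval, which is a use for probes on both strands.

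The arrays held RNA from mouse breast tumours, 4 labelled FGFR1 KO and 4 labelled WT. The FGFR1 KO tumours came from K19-tva mice that also carried fgfr1loxP/loxP, and the WT tumours from control K19-tva mice, all on the FVB strain. K19-tva is named for the keratin 19 promoter and for the receptor of an avian retrovirus, and both groups share it. Fgfr1 is a receptor for fibroblast growth factors, and loxP sites let Cre recombinase delete the sequence between them. The age of the mice, the agent that started the tumours, how the Cre recombinase was supplied, and whether the 4 tumours of a group came from separate mice are not in the labels. The p-values therefore measure only the spread between these samples, which may be technical. Each array was hybridised with tumour RNA in red and Universal Human Reference RNA in green, as the labelling protocol has it, although the label field names only cy3. A level is the log2 of red over green, and a difference is the FGFR1 KO mean minus the WT mean of these log2 ratios. The reference is human, so levels are not compared between probes.

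Several facts of the whole array touch these probes. The labelled deletion was not visible at an Fgfr1 probe outside the rectangle, A_55_P1967015. There 4 arrays a group gave mean levels of 0.31 ± 0.11 (SD) for FGFR1 KO and 0.31 ± 0.06 (SD) for WT. Another probe outside it, A_55_P1967022, gave 0.44 ± 0.92 (SD) and 0.54 ± 0.27 (SD). A probe inside it, A_55_P2057777, gave 0.13 ± 1.56 (SD) and 0.62 ± 0.19 (SD). At both of these the FGFR1 KO arrays varied widely. Where the probes lie relative to the deleted part is not known here. All 8 arrays lay on 1 slide, the FGFR1 KO arrays in one row of it and the WT arrays in the other, so slide row and group cannot be told apart. Negative-control spots inside the rectangle had a median red signal above local background of 35.5 on WT 1 and 41 on WT 3. It was 6.25 on WT 2, 6 on WT 4 and 0 to 6 on the FGFR1 KO arrays. Skeletal muscle markers, 9 of 12 of them tested, had a median level of 8.73 on WT 2, 2.52 on WT 1 and -0.43 to 0.56 elsewhere. Adipocyte markers, 10 of 10 tested, had a median of 3.79 on WT 2, 2.54 on WT 1 and 0.07 to 0.43 elsewhere. The median fibroblast and matrix marker level was -2.44 to -0.68 in FGFR1 KO and -0.55 to 0.19 in WT, with 12 of 12 markers lower in FGFR1 KO and 0 past an adjusted p of 0.05 in limma. Luminal epithelial markers, 9 of 10 tested, had a median of -1.14 on WT 2 and 1.57 to 3.05 elsewhere, with 8 of the 9 higher in FGFR1 KO and 0 past the adjusted threshold in limma. Some tested marker probes lay inside the rectangle: 6 of 9 for muscle, 5 of 10 for adipocytes, 3 of 12 for fibroblasts and matrix, and 5 of 9 for luminal epithelium. The part of these cell types in the interval probe values was not tested, except where an array is left out below. In bulk tumour RNA, fewer cells of a type and less RNA per cell cannot be told apart.

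More interval probes were detected on the FGFR1 KO arrays than on the WT arrays by the scanner's own call, but the groups overlapped under a threshold set on negative controls. The scanner flags a spot as well above background by a rule of its own, which was not examined here. In red, the flag was set for 79.8%, 62.1%, 71.3% and 77.5% of interval probes on FGFR1 KO 1 to 4, and 33.2%, 49.6%, 36.3% and 59.6% on WT 1 to 4. Every FGFR1 KO array lay above every WT array, and FGFR1 KO 2 and WT 4 were the closest. The means were 72.7% ± 7.94 (SD, n = 4) and 44.7% ± 12.2 (SD, n = 4), 28.0 percentage points apart. The other probes outside the rectangle were 22.4 points apart (79.1% against 56.8%), and the interval probes were 18.3 points apart in green, the reference channel (87.8% against 69.5%).

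Over all arrays, the share marked in this way did not follow the brightness of the spots. The median red signal of interval probes above local background was 161, 44.0, 74.0 and 132 intensity units on FGFR1 KO 1 to 4 and 108, 64.0, 96.0 and 86.5 on WT 1 to 4, so the groups overlapped. WT 1 was brighter than FGFR1 KO 2 and had the lower share. Within FGFR1 KO, share and brightness had the same order of arrays. Within WT the brightest arrays, WT 1 and WT 3, had the lowest shares. They are also the arrays with bright negative controls inside the rectangle. The median pixel SD of the local background was 17.5 to 19.2 in FGFR1 KO and 17.7 to 18.8 in WT. A probe was next called detected when its red signal above local background exceeded the 99th percentile of the 212 negative-control spots outside the rectangle on the same array. By that call, 86.5%, 73.6%, 75.1% and 85.9% of interval probes were detected in FGFR1 KO and 68.8%, 78.9%, 76.5% and 75.6% in WT. The groups then overlapped and the difference was 5.33 percentage points, and with the 95th percentile it was 1.66 points.

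**Figure D1:**
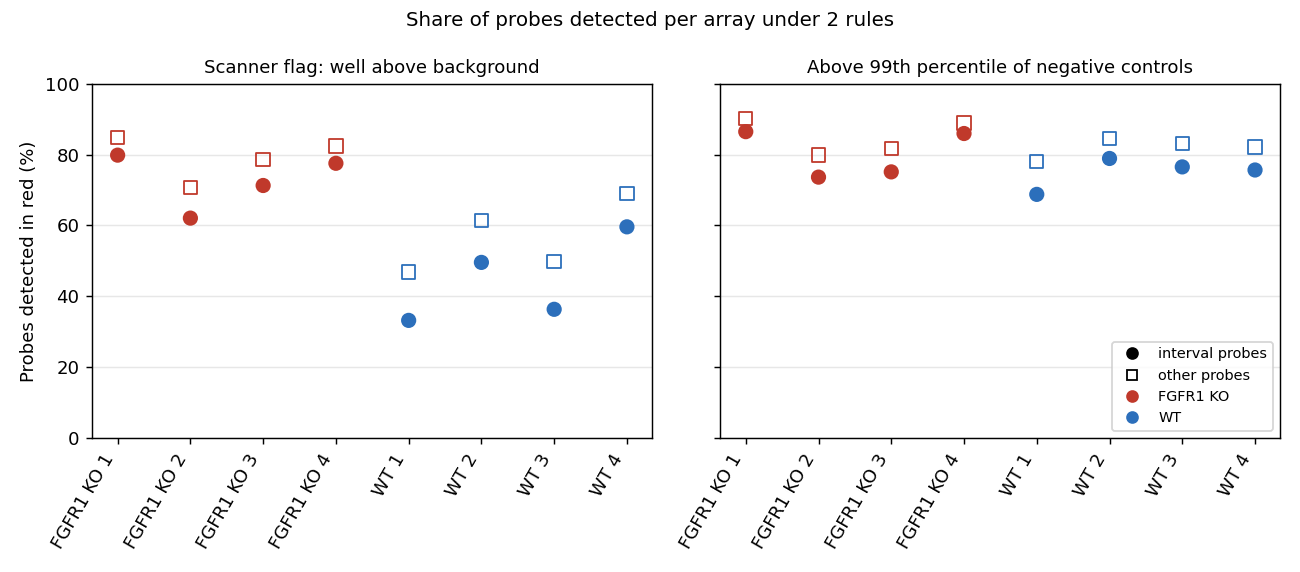
Share of probes detected in red on each of the 8 arrays, in percent, by the scanner's flag (left) and by the 99th percentile of the negative controls of the array (right). Filled circles are the 11096 interval probes and open squares the 26872 other probes outside the rectangle. On the left every FGFR1 KO array lies above every WT array for the interval probes. On the right the groups overlap.

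By probe, 3322 interval probes (29.9%) carried the red flag on all 8 arrays and 1776 (16.0%) on none. On all 4 FGFR1 KO arrays and no WT array there were 385 interval probes (3.47%), against 2.59% of the other probes outside the rectangle and 2.51% of all probes on the array. On all 4 WT arrays and no FGFR1 KO array there were 0 interval probes and 0 other probes outside the rectangle. Length made little difference: among the shortest 832 intervals, 62 to 816 bp, 70.3% of probes were well above background in FGFR1 KO and 42.6% in WT, and among the longest 831, 22301 to 538251 bp, 73.5% and 45.4%. Forward probes stood at 72.1% and 44.8%, and reverse probes at 73.3% and 44.6%.

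The 385 probes marked in FGFR1 KO alone were small differences in signal for the most part. For such a probe the WT level is only a bound. The fold sets the mean red signal of FGFR1 KO, normalized by loess and then A-quantile, over the higher of the probe's own WT signal and the lowest well above background of each array, and since no dyes were swapped it may carry dye bias. A bound could be formed for 384 of the 385 probes. It was above 1 for 282 of them, and the median over the 384 was 1.08. A_30_P01027130 (chr6:47915489-47916089, F) has none and was not tested, since 3 of its 4 WT values were outlier spots and were left out. The largest bound, and the 1 above 2, was that of A_30_P01019283 (chr4:55593675-55629225, F), at least 2.12-fold higher in FGFR1 KO. Its log2 ratios were 0.50, 2.15, 0.78 and 2.10 in FGFR1 KO and -0.16, 0.12, 0.40 and 0.03 in WT. All FGFR1 KO values lay above all WT values, with FGFR1 KO 2 and FGFR1 KO 4 the highest. The difference was 1.29 ± 0.39 (SE, n = 4 per group; limma, adjusted p = 0.443), and the probe was tested through its FGFR1 KO detection alone. The median difference of the 3 other probes of the same strand was 0.03.

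FGFR1 KO and WT were then compared probe by probe over the log2 ratios. Of the interval probes, 7106 met the signal filter and were tested among 39818 probes of the array. No interval probe passed an adjusted p of 0.05 in limma in either direction: 0 were lower and 0 higher, and the smallest adjusted p was 0.129. Over all probes tested, 0.0100% were called lower (4 probes) and 0% higher. At an unadjusted p under 0.05 in limma, 108 interval probes (1.52%) were lower and 374 (5.26%) higher in FGFR1 KO, against 4.85% and 3.63% of all probes tested and 1.95% and 4.23% of the other probes outside the rectangle. Every FGFR1 KO value lay below every WT value for 67 of 6996 interval probes with all 8 values (0.958%), and above for 262 (3.74%), against 2.68% and 2.37% of all probes and 1.10% and 2.70% of the other probes outside the rectangle. Of the probes that met the filter of 4 arrays, 1696 did so with at most 1 WT array, and such probes could pass through FGFR1 KO alone.

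The balance between higher and lower interval probes rested on how the arrays were normalized. With the rectangle left out before normalization, 177 interval probes (2.49%) were lower and 200 (2.81%) higher at an unadjusted p under 0.05 in limma, against 3.06% and 2.50% of all probes left, and 0 passed the adjusted threshold (smallest adjusted p 0.854). The median difference over all interval probes was 0.06 with every spot normalized and 0.01 without the rectangle, and 62.1% and 51.8% of interval probes were above 0. Other probes outside the rectangle had medians of 0.04 and -0.01. By array, the median interval probe stood at 0.07, -0.01, 0.02 and 0.06 in FGFR1 KO and -0.06, -0.01, -0.03 and -0.00 in WT with every spot normalized. Without the rectangle the medians were 0.07, -0.00, 0.03 and 0.05 against 0.01, 0.00, 0.05 and 0.02, and the groups overlapped both ways. Few interval probes differed much: the means of 0.604% were over 1 log2 apart (30 higher and 37 lower in FGFR1 KO), against 2.70% of the other probes outside the rectangle. The median SD within a group was 0.22 in FGFR1 KO and 0.23 in WT.

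Interval probes next to the rectangle were lower on 1 side of it. In the 5 rows just before it, 98 interval probes had a median difference of -0.06 and 11.2% of them were below -0.5, against 2.56% of the 1604 interval probes over 20 rows before it. In the 5 rows just after it, 99 interval probes had a median of 0.02 and 1.01% below -0.5. Inside it, the 5085 interval probes that were left out had a median of -0.17.

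The 8 interval probes with the smallest p for a lower level in FGFR1 KO included 3 with close and separate groups. A_30_P01019863 (chr17:17492400-17507525, F) had log2 ratios of -0.29, 0.26, -0.14 and 0.24 in FGFR1 KO and 0.91, 1.14, 1.15 and 1.18 in WT. The groups did not overlap, and WT 1 was the lowest WT array. The difference was -1.07 ± 0.17 (SE; limma, adjusted p = 0.129), it was well above background on 3 FGFR1 KO and 2 WT arrays, and the other forward probe of the interval, with a difference of -0.14, did not meet the filter. With no filter on signal, this probe alone among the interval probes passed the adjusted threshold in limma (adjusted p = 0.0486). A_30_P01021711 (chr5:143196275-143207575, F) stood at -0.73, 0.02, -0.39 and -0.74 in FGFR1 KO and 0.36, 0.67, 0.70 and 0.41 in WT. It was separate too, with a difference of -0.997 ± 0.20 (SE; limma, adjusted p = 0.217), but it lay 9 spots from the rectangle, and its 3 other forward probes had a median difference of -0.07. A_30_P01029860, in a long interval of the X chromosome (chrX:100745320-100819322, F), stood at -0.43, -0.46, -0.23 and -0.29 in FGFR1 KO and 0.40, 0.30, 0.47 and 0.08 in WT. No values overlapped, the difference was -0.67 ± 0.14 (SE; limma, adjusted p = 0.238), and the 6 other forward probes had a median of 0.16.

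A set of 3 lower probes on different chromosomes shared the highest array of each group, while other arrays differed in order. A_30_P01018246 (chr1:93812836-93816128, F) stood at -1.34, -1.29, -0.64 and -1.45 in FGFR1 KO and 0.91, -0.18, 2.14 and 0.08 in WT. A_30_P01030895 (chr5:112205091-112240992, F) stood at -1.25, -1.43, -0.59 and -1.38 in FGFR1 KO and 0.65, -0.04, 2.15 and -0.24 in WT. A_30_P01024567 (chr12:106566735-106624460, R) stood at -1.63, -0.67, -0.03 and -1.21 in FGFR1 KO and 1.26, 0.25, 2.68 and 0.33 in WT. In all 3, WT 3 was the highest array, WT 1 came next and FGFR1 KO 3 was the highest of its group, and the groups did not overlap. The differences were -1.92 ± 0.47, -1.79 ± 0.49 and -2.01 ± 0.56 (SE; limma, adjusted p = 0.342, 0.403 and 0.411). Other probes of these strands did not have them: their median differences were 0.27, -0.04 and 0.00. The likeness of the 3 probes was noticed after their values were seen, and was not tested. WT 3 and WT 1 are also the arrays with bright negative controls inside the rectangle. The 3 probes lay 62, 43 and 68 spots from it, and a part of the rectangle in their values was not tested.

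The remaining lower probes were A_30_P01023490 (chr12:73789535-73799787, F), at -0.62 ± 0.15, and A_30_P01030748 (chr15:92174226-92201201, F), at -0.91 ± 0.25 (SE; limma, adjusted p = 0.342 and 0.405). Neither had overlapping groups.

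Among the 8 interval probes with the smallest p for a higher level, the largest difference was at a short interval of chromosome 11. A_30_P01026680 (chr11:5377054-5377725, R) stood at 0.66, 1.78, 1.02 and 1.52 in FGFR1 KO and -0.33, -0.74, 0.20 and -0.13 in WT. FGFR1 KO 1 was the lowest of its group and still above WT 3. The difference was 1.50 ± 0.29 (SE; limma, adjusted p = 0.186), and the 2 other reverse probes of the interval were at 0.05 and 0.31. The probe was well above background on 4 FGFR1 KO arrays and 1 WT array, so it could meet the signal filter through FGFR1 KO alone. The smallest p belonged to A_30_P01023718 (chrX:146827709-146913398, F), at 0.36, 0.28, 0.15 and 0.24 in FGFR1 KO and -0.39, -0.38, -0.56 and -0.46 in WT. Both groups were tight and far apart, with a difference of 0.71 ± 0.12 (SE; limma, adjusted p = 0.162). It was well above background on all 4 FGFR1 KO arrays and no WT array, so it met the signal filter through FGFR1 KO alone. Its bound was at least 1.12-fold, and the 6 other forward probes had a median difference of 0.00.

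The interval chr12:73789535-73799787 held a probe in each list. The forward probe A_30_P01023490 stood at -0.23, 0.06, -0.24 and 0.14 in FGFR1 KO and 0.63, 0.64, 0.60 and 0.33 in WT. The reverse probe A_30_P01031720 stood at 0.42, 0.30, 0.61 and 0.25 in FGFR1 KO and -0.39, -0.71, -0.17 and -0.63 in WT, a difference of 0.87 ± 0.16 (SE; limma, adjusted p = 0.182). It was well above background on all 4 FGFR1 KO arrays and no WT array, so its WT level is only a bound, at least 1.70-fold lower than FGFR1 KO, and it met the signal filter through FGFR1 KO alone. The forward probe was well above background on all 8 arrays, and neither probe had overlapping groups. The other probes of this interval were not: the median over the 3 others was -0.03 on the forward strand and -0.06 on the reverse, where 1 of them was at 0.51. The pair of strands was not among the 6 strand pairs with the smallest p described below.

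The other 5 higher probes had smaller differences, 0.59 to 0.89, and groups that did not overlap. A_30_P01020449 (chr12:17888352-17907493, F) was the only 1 of the 5 well above background on all 8 arrays, at 0.96, 0.84, 0.45 and 1.18 in FGFR1 KO and -0.02, -0.40, 0.13 and 0.17 in WT (difference 0.89 ± 0.20, SE; limma, adjusted p = 0.283), and no other probe read its strand. A_30_P01023646 (chr11:102983499-102994170, R) was the only 1 of the 5 whose other probes on the strand had differences of like size, at 0.32 and 0.63 against 0.59 ± 0.13 for the probe itself (SE; limma, adjusted p = 0.286). The remaining 3 were A_30_P01018895 (chr11:76400207-76434732, R) at 0.67 ± 0.13, A_30_P01025760 (chr6:148173524-148174740, F) at 0.64 ± 0.14 and A_30_P01021204 (chr11:60728207-60745369, R) at 0.60 ± 0.14 (SE; limma, adjusted p = 0.211, 0.246 and 0.316). A_30_P01023646 and A_30_P01021204 were well above background on 4 FGFR1 KO arrays and 1 WT array. A_30_P01018895 and A_30_P01025760 were so on 4 FGFR1 KO arrays and 2 WT arrays. Each of these probes could meet the signal filter through FGFR1 KO alone.

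**Figure D2:**
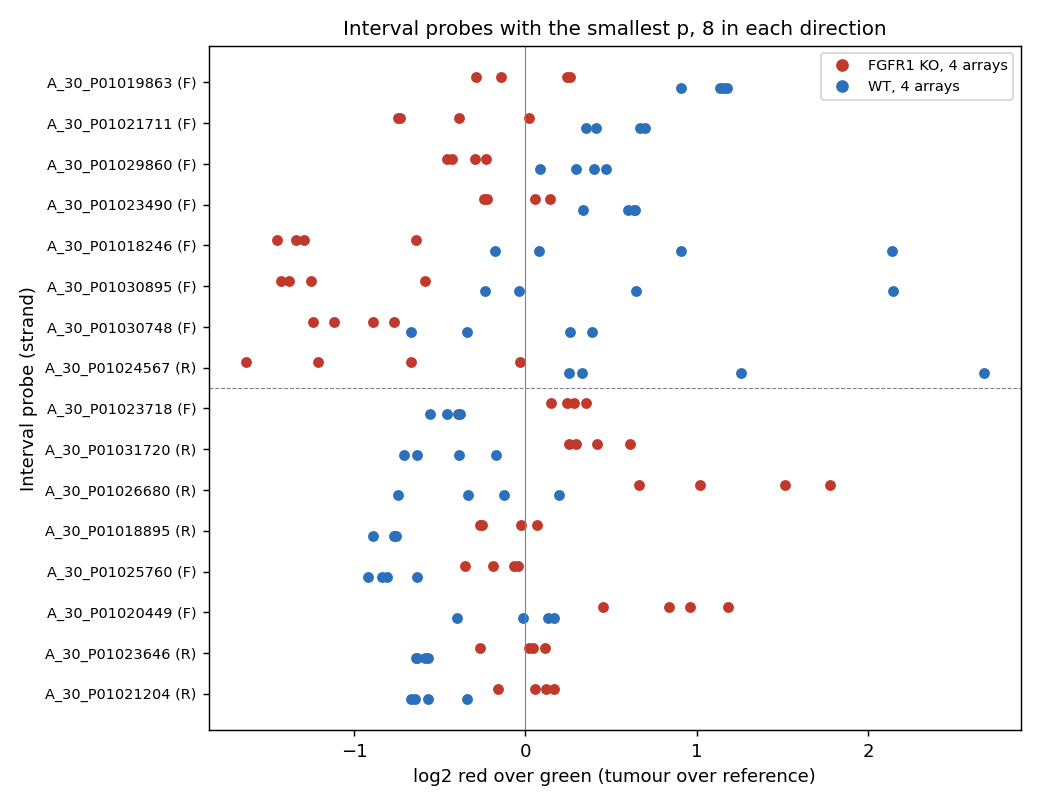
Log2 red over green of the 16 interval probes with the smallest p, 8 lower in FGFR1 KO above the dashed line and 8 higher below it, with 1 point per array and the strand in brackets. The groups do not overlap at any of the 16. For A_30_P01018246, A_30_P01030895 and A_30_P01024567 the highest WT point is WT 3, at 2.14, 2.15 and 2.68.

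Probes of 1 interval strand shared little of their differences. Among 1817 interval probes well above background on all 8 arrays, in 752 interval strands with more than 1 such probe, the SD of the difference was 0.26 within an interval strand and 0.29 over all of them, an intraclass correlation of 0.18. Of 222 interval strands with at least 3 such probes, 72 had all probes in 1 direction (38 higher and 34 lower in FGFR1 KO), and 0 had all of them without overlap between the groups. A median over at least 3 such probes was largest in chr17:39982023-39983277, F, at 0.86, next in chr13:94182877-94203935, R, at 0.78. In the latter, the 3 probes had medians of 0.47, 1.11, 0.70 and 1.75 on the FGFR1 KO arrays and 0.08, 0.36, 0.41 and 0.05 on the WT arrays, so all FGFR1 KO arrays lay above all WT arrays.

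The first of these lies in a stretch of chromosome 17 whose forward probes shared their highest and lowest arrays. Of the interval probes, 14 lie within chr17:39960567-39992817, in that interval and 4 shorter ones inside it, 6 on the forward strand and 8 on the reverse. The forward probe A_30_P01027833 stood at 1.49, 1.69, 0.91 and 2.81 in FGFR1 KO and -0.29, -0.33, 1.28 and 1.28 in WT. FGFR1 KO 4 was the highest array and WT 1 and WT 2 the lowest at 6 of 6 forward probes, and WT 3 and WT 4 lay among the FGFR1 KO arrays at this one. The forward differences were 0.44 to 1.24, and 0 of the 14 probes passed the adjusted threshold in limma (smallest adjusted p 0.486). Without WT 1 and WT 2 the forward differences were -0.22 to 0.44, and 4 of 6 were above 0. WT 1 and WT 2 are the arrays with the high muscle and adipocyte marker levels given above. The reverse probes ranged from -0.05 to 0.98, and WT 1 and WT 2 were the lowest arrays at 2 of 8.

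A probe that is no interval probe had the same highest and lowest arrays, while the arrays between them differed in order. A_66_P110798, listed under the RefSeq accession NR_046233, for which the gene table used here has no symbol, stood at 1.45, 1.84, 1.12 and 2.40 in FGFR1 KO and -0.13, -0.27, 1.48 and 1.44 in WT. FGFR1 KO 4 was again the highest array and WT 1 and WT 2 the lowest (difference 1.07 ± 0.47, SE; limma, adjusted p = 0.589). The probe of Rn28s1, which encodes 28S ribosomal RNA, did not share these arrays. It stood at 1.62, 3.07, 2.15 and 1.92 in FGFR1 KO and 1.37, 2.13, 1.75 and 2.07 in WT. There FGFR1 KO 2 was the highest array and WT 2 was above 2 of the FGFR1 KO arrays. Both probes were chosen after their values were seen.

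**Figure D3:**
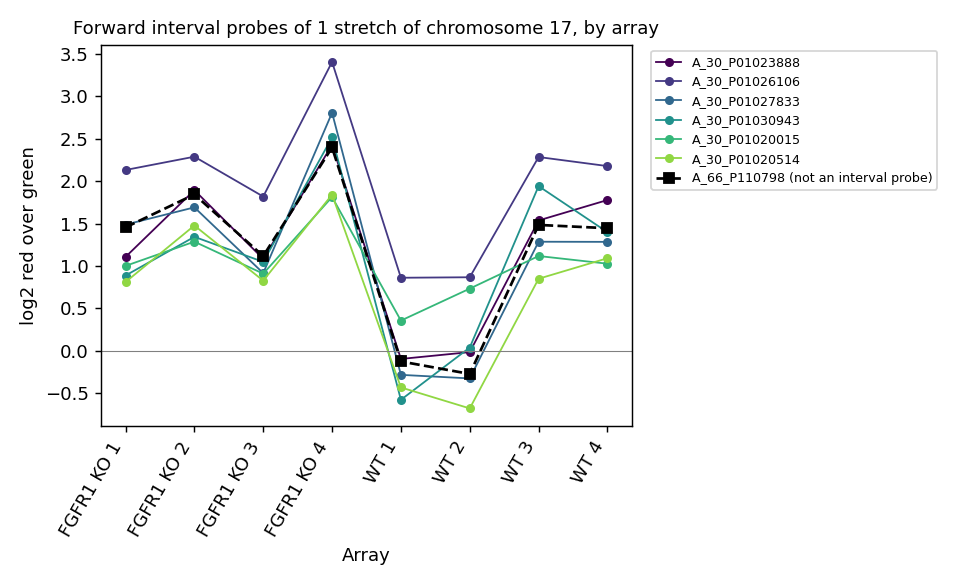
Log2 red over green of the 6 forward interval probes within chr17:39960567-39992817 on the 8 arrays, with probe A_66_P110798, which is no interval probe, as black squares. Lines join the values of 1 probe and carry no order of arrays. At each of the 7 probes WT 1 and WT 2 are the lowest arrays and FGFR1 KO 4 the highest.

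Both strands of an interval usually carried the red flag, where any 1 probe of a strand was enough. Of single interval probes, 64.2% had it on at least 4 of 8 arrays. In green, the human reference, the flag was set for a mean of 87.8% on FGFR1 KO and 69.5% on WT arrays. A flagged strand is therefore not shown to be transcribed. Of the 954 intervals with probes on both strands, 789 (82.7%) had at least 1 probe with the red flag on 4 or more arrays on each strand, 74 on the forward strand alone, 69 on the reverse strand alone and 22 on neither. Where both strands had the same number of probes, 187 of 236 (79.2%) had both. In 19 intervals 1 strand was detected on all 8 arrays and the other on none. The labelled RNA was cDNA, and whether the labelling marked strand faithfully was not tested.

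The strands of an interval did not differ detectably in how FGFR1 KO compared with WT. The forward mean minus the reverse mean was taken within arrays and tested for 932 intervals, among 1499 pairs formed over the whole array, with probes inside the rectangle paired apart. In limma 0 of them passed an adjusted p of 0.05 (smallest 0.111), against 0.467% of all pairs tested (7 pairs, all of probes inside the rectangle). At an unadjusted p under 0.05 in limma there were 58 of the 932. Over all 1499 pairs, those inside the rectangle included, there were 184 (12.3%). In 29 of the 58 the forward strand had the higher difference. The median size of the forward minus reverse difference was 0.12, and 4 pairs exceeded 1. In 421 intervals with both strands detected on all 8 arrays, the forward and reverse differences had a correlation of -0.03 across intervals and the same sign in 255. Intervals share arrays and can overlap, so this is a description.

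The pair with the smallest p was chr17:17492400-17507525, which holds A_30_P01019863. The forward mean of its 2 probes stood at -0.26, 0.18, -0.18 and 0.11 in FGFR1 KO and 0.35, 0.83, 0.57 and 0.52 in WT, and the reverse mean at 0.35, 0.19, 0.33 and 0.42 against 0.26, -0.26, -0.01 and -0.04. The forward strand was lower and the reverse strand higher in FGFR1 KO, WT 1 lay within the FGFR1 KO range on the reverse strand, and the difference between strands was -0.94 ± 0.22 (SE; limma, adjusted p = 0.111). The next pair, chr5:112205091-112240992, holds A_30_P01030895 and was at -0.63 ± 0.16 (SE; limma, adjusted p = 0.132), with -0.62 on the forward and 0.01 on the reverse strand. The largest of the 6 was chr4:8865575-8899400, whose 3 forward probes averaged 1.49, 2.49, 1.97 and 2.68 in FGFR1 KO and 1.38, 1.53, 0.96 and 1.08 in WT, while the 4 reverse probes averaged -0.24 to -0.05 and -0.16 to -0.00. Forward values overlapped only at FGFR1 KO 1 and WT 2, and the strands differed by 1.00 ± 0.27 (SE; limma, adjusted p = 0.169). The other 3 were chr16:90008636-90015586 at -0.75 ± 0.20, chr12:117623500-117643575 at -0.72 ± 0.19 and chr11:76400207-76434732 at -0.49 ± 0.14 (SE; limma, adjusted p = 0.144, 0.152 and 0.213).

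**Figure D4:**
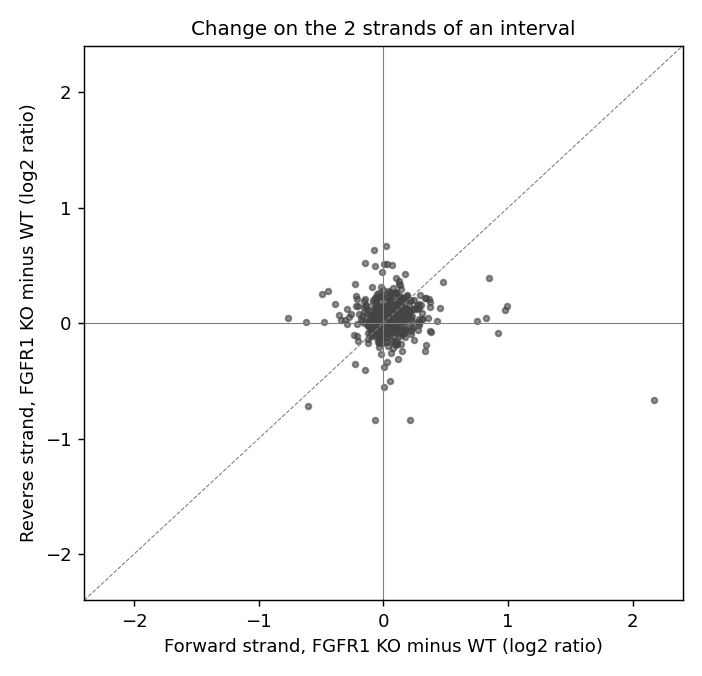
FGFR1 KO minus WT difference in log2 ratio on the forward strand (horizontal) and the reverse strand (vertical) of the 421 intervals with both strands well above background on all 8 arrays, with 1 point per interval and equal differences on the dashed line. The points form a round cloud near 0. The point at 2.17 on the forward strand is chr5:105063625-105077700, at -0.67 on the reverse.

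Of the intervals with both strands detected on all 8 arrays, those with the largest mean difference varied within groups as much as between them. In chr5:105063625-105077700 the single forward probe stood at 1.08, 4.82, 3.14 and 4.54 in FGFR1 KO and 2.45, -0.41, 1.73 and 1.16 in WT, and the single reverse probe at -0.41, 0.44, 0.03 and 0.28 against 0.49, 2.69, -0.23 and 0.06. FGFR1 KO 1 lay below 3 of the WT arrays on the forward strand, and WT 2 was the lowest array on the forward and the highest on the reverse strand. In chr5:35975265-35982561, WT 2 was at 2.58 on the forward and 3.20 on the reverse strand, and every other array lay between -0.77 and 0.65, so the mean difference of -0.66 rests on that array. The forward strands of chr3:87757295-87774970 and chr8:108153471-108159672 had differences of 0.99 and 0.97. On both, FGFR1 KO 1 (0.42 and 0.49) was the lowest of its group and WT 2 (-0.62 and 0.03) the lowest of all, and FGFR1 KO 2, 3 and 4 were above all WT arrays. WT 2 is also the array with the lowest luminal epithelial marker level, and the part of that in these strands was not tested. The reverse strand of chr1:175654606-175672031 had a difference of -0.84, with WT 1 at 0.42 and the other arrays at -2.03 to -0.83.

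WT 2 was the array on which interval probes stood apart most often. Over the 3322 interval probes detected on all 8 arrays, the log2 ratios of WT 2 had a mean correlation across probes of 0.41 with the other arrays, against 0.60 to 0.71 for each of those. On WT 2, 151 interval probes, 2.80% of those detected there, were more than 1 log2 above every other array, and the next highest array, WT 3, had 0.687%. Of the other probes outside the rectangle, 7.81% did so on WT 2. These 151 probes lay in 113 intervals, 96 on the forward and 55 on the reverse strand. Several of the highest were forward probes of a locus on chromosome 10, in chr10:69669025-69686275 and chr10:69679644-69682458 nested in it. A_30_P01019232 stood at 5.19 on WT 2 and -0.46 to 0.24 on the other 7 arrays, and A_30_P01017637, A_30_P01029918 and A_30_P01032544 at 4.60, 4.18 and 4.11 on WT 2 and -0.31 to 0.16 elsewhere. All 4 were well above background on 1 array, WT 2.

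Further probes of this kind were A_30_P01019334 (chr3:137742666-137744470, F), at 4.45 on WT 2 and -0.55 to 0.09 elsewhere, and A_30_P01019931 (chr16:91174611-91200786, F), at 5.26 against 0.45 to 1.20. In chr12:74135916-74142780, F, the median of 4 probes was 1.40 on WT 2 and -0.07 to 0.18 elsewhere. The excess on WT 2 was on 1 strand more than on both. Other detected probes of the same strands were a median of 0.19 above the mean of the other 7 arrays, with 14.9% of 141 over 1, and those of the opposite strands -0.06, with 3.73% of 134 over 1, against -0.00 and 5.07% of all 5387 interval probes detected on WT 2. These probes were chosen on WT 2 itself, so their excess there is a description. WT 2 is also the array with the highest muscle and adipocyte and the lowest luminal epithelial marker levels, and their part in these values was not tested.

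By chromosome the interval probes differed little. With every spot normalized, the median difference was above 0 on all 19 autosomes, from 0.03 on chromosome 16 (390 probes) to 0.09 on chromosome 14 (500 probes), and it was 0.06 on the X chromosome (396 probes). The chromosome 16 medians were 0.07, -0.01, 0.03 and 0.05 in FGFR1 KO and -0.04, 0.01, -0.02 and 0.02 in WT. The chromosome 14 medians were 0.08, 0.00, 0.04 and 0.09 against -0.06, 0.01, -0.05 and 0.00. The groups overlapped on both. With the rectangle left out before normalization the range was -0.01 to 0.03, and 6 autosomes were below 0. The share of interval probes well above background in red was 23.9 to 30.1 percentage points higher in FGFR1 KO on each autosome, from 67.8% to 77.5% in FGFR1 KO and from 39.9% to 51.6% in WT.

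**Figure D5:**
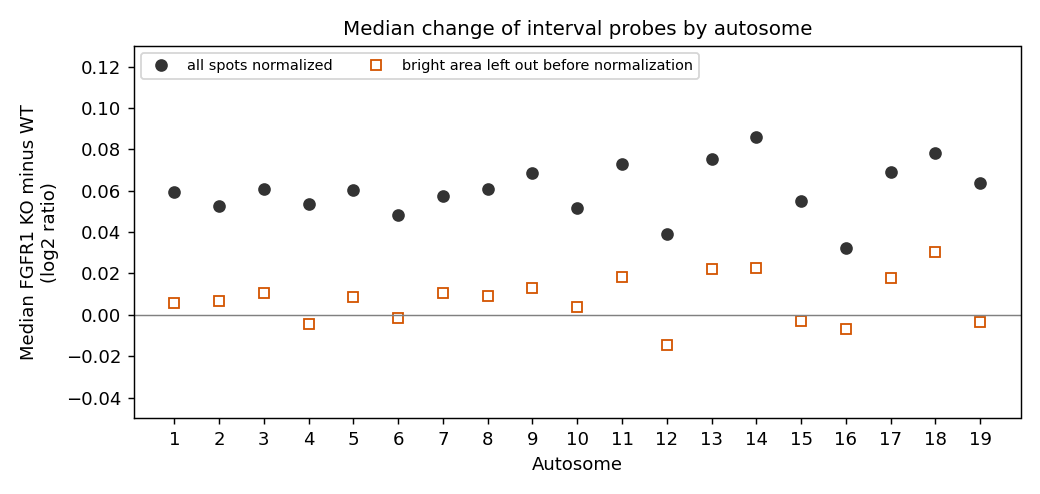
Median FGFR1 KO minus WT difference in log2 ratio over the interval probes of each autosome, with every spot normalized (filled) and with the rectangle left out before normalization (open). Filled points lie between 0.03 and 0.09. Open points lie between -0.01 and 0.03, 6 of them below 0.

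Long non-coding RNAs with a gene symbol were set beside the intervals. Of a list of 50, 31 were on the array and 26 were tested, 9 of the 26 by a probe inside the rectangle. In limma 0 passed an adjusted p of 0.05 in either direction, and 10 had a lower and 16 a higher FGFR1 KO mean. The median over the 26 was 0.06. The interval probes also had a median of 0.06, but over a set with no signal filter and no probe inside the rectangle. At an unadjusted p under 0.05, 2 were lower and 0 higher. Meg3, an imprinted RNA made from the maternal allele, was read here by 1 of its 3 probes. It stood at 0.53, 1.09, 1.26 and 0.40 in FGFR1 KO and 1.22, 1.12, 1.62 and 1.62 in WT. FGFR1 KO 3 overlapped WT 1 and WT 2, and the difference was -0.58 ± 0.23 (SE; limma, adjusted p = 0.558). Dleu2, the host transcript of miR-15a and miR-16-1, was at -1.15 ± 0.49 (SE; limma, adjusted p = 0.581), with WT 3 the highest array at 2.69 and FGFR1 KO 3 the highest of its group at 0.76. H19, an imprinted RNA of embryonic tissues and of muscle, had the largest difference of the 6 with the smallest p, -2.28 ± 1.10 (SE; limma, adjusted p = 0.614). It stood at -2.24, -0.79, -1.69 and -2.27 in FGFR1 KO and -1.71, 4.19, 0.19 and -0.54 in WT, so WT 1 overlapped FGFR1 KO and WT 2 set the size. Fendrr (-0.70) and Lncpint (-0.88), by probes inside the rectangle, and Ftx (0.39) were the others. Lncpint and Ftx were each read by 1 of 2 probes.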

How the data were processed

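RNA from 8 mouse breast tumours was hybridised to 2-colour Agilent arrays designed on mm9 and scanned into text by Feature Extraction 11.0.1.1, per the file headers. Spot medians, local backgrounds and background pixel SDs are raw intensity units, per the file headers, and the scanner's ratio is a log10 of processed signals. Flags are 0 or 1, other values than measurements, per the file headers. The authors' deposited series matrix behaves as log2 red over green: over interval probes its columns correlated at 0.978 to 0.986 with the values here, its column medians were -0.02 to 0.02, and its normalization and centring are unknown.

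Here signals were background-corrected by normexp (offset 50) and normalized by loess, control and outlier spots at weight 0, in R 4.3.3 with limma 3.58.1. A probe was tested where red was flagged well above background on 4 or more of 8 arrays and each group had 3 or more values. The test was limma's lmFit and eBayes, two-sided, with p-values adjusted by Benjamini-Hochberg across all 39818 such probes, and it was checked on simulated data. Strand pairs were tested alike on forward minus reverse means. The number of arrays limits the precision. Symbols came from RefSeq accessions in a GRCm38.p6 table, for names only. The text names the 8 probes of smallest p per direction (where fewer than 5 passed), those flagged on all 4 arrays of 1 group and none of the other (up to 10), up to 6 strand pairs, up to 6 intervals by mean difference, the extreme autosomes and up to 6 genes of the named list, without chromosome 18. Others were chosen after their values were seen. Members and lists were chosen with earlier results of these data known. Replicate numbers were not treated as pairs. Same-numbered arrays correlated at 0.01, -0.04, 0.20 and 0.03 in their deviations over 3322 interval probes. Over these probes, numbers 3 and 4 matched their own number best. Such correlations cannot exclude a pairing of the tumours.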

Additional observations from a re-analysis of the deposited data

Results flagged for a closer look

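Within groups of 4 arrays, 3 of 55 groups examined among the named probes and per-array summaries held 1 array far from the other 3, where chance gives about 5% of groups. For A_30_P01019863 (chr17:17492400-17507525, F) WT 1 stood at 0.91, below the other WT arrays at 1.14 to 1.18, and still above every FGFR1 KO array. For A_30_P01023490 (chr12:73789535-73799787, F) WT 4 stood at 0.33 and the other WT arrays at 0.60 to 0.64. For A_30_P01018895 (chr11:76400207-76434732, R) WT 4 stood at -0.89 and the other WT arrays at -0.77 to -0.76. In none of the 3 does the array that stands apart join the other group.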

How the results depend on the processing

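Calls of interval probes were 0 in both directions under every alternative except 1, with no filter on signal, where 1 was lower (A_30_P01019863). Calls of strand pairs were 0 except with the red processed signal alone, which gave 1. The median difference of 0.06 became 0.12 with the scanner's ratio, 0.093 with median centring and 0.0073 with the rectangle left out before normalization. Autosomes below 0 numbered 6 with the rectangle left out and 1 with probes detected on all 8 arrays. The difference in detected share of 28.0 percentage points became 5.33 and 1.66 with the 99th and 95th percentiles of negative controls. The cause was not tested. Leaving out each array in turn gave 0 to 0 calls of probes and of pairs, medians of 0.04 to 0.07, share differences of 24.2 to 33.0 and 0 to 0 autosomes below 0. With the replicate number as a block, 0 interval probes were called lower, 0 higher and 0 strand pairs. The median was then 0.06 and 0 autosomes were below 0. Whether the numbers pair the tumours is not known. Members over 10 spots from the rectangle, an alternative chosen after seeing the data, gave a median of 0.06 and 0 calls. For 29 named probes and pairs, 550 of 551 alternative values had the same direction and side of the threshold, 1 passed it and 0 reversed. Signal over background limits the rest: 35.5% of interval probes had a mean red level under 7 on the log2 scale, against 25.8% of the other probes outside the rectangle.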
